A study of Mus musculus with 6 samples.

Results

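The MIR, L2 and CR1 families are among the oldest interspersed repeats that the mouse genome still carries in number. Single copies of these families were selected by the family name that the copy table gives them, which took 1430 of its 26255 transposable element (TE) copies: 832 MIR copies, 520 L2 copies and 78 CR1 copies. The subfamily table, with 1 entry for each element, holds 20 matching entries among 938.

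The RNA came from mouse embryonic stem cells (ESCs) of the E14 line, which needs no feeder cells and was grown in serum with LIF on gelatin. The Dot1l KO group has 3 samples of cells whose Dot1l gene was knocked out with CRISPR/Cas9, with the genotype Dot1L-/-, and the WT group has 3 samples of wild-type cells; all carry the label day 14, whose starting point no source used here gives. Nothing in these sources says whether the replicates were separate cultures or clones, so p-values measure only how these samples vary, which may be technical. Dot1l encodes the methyltransferase that places methyl groups on lysine 79 of histone H3 along transcribed genes, and the comparison asks which transcripts, repeats included, differ when it is knocked out.

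The tables hold the authors' own comparison and no values per sample, so a copy is described by its mean normalized count over all libraries, its log2 fold change with standard error (SE) and its p-value. Which genotype stands on top of the fold change is not stated in the files. Positive values were taken to mean more RNA in Dot1l KO, since MERVL, a retrovirus that Dot1l is reported to repress in ESCs, should then be higher, and MERVL-int stands at 1.96 ± 0.38 (SE) in the authors' deposited table; with the opposite sign, every direction below would turn round. The RNA of Dot1l itself does not settle the sign, at -0.16 ± 0.25 in the authors' deposited table (DESeq2, adjusted p = 0.845). Levels of each group quoted below were implied from the mean and the fold change, taking the groups as equal in size. The means of the copy table sum to 482719 normalized counts and those of the subfamily table to 888505, and the depth of each library is unknown.

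MIR elements (mammalian-wide interspersed repeats) are short interspersed elements, or SINEs, descended from a tRNA, and once had their own promoter for RNA polymerase III. They had no reverse transcriptase and were copied by the machinery of L2, a long interspersed element (LINE) whose 3' end they share. L3 and the other elements of the CR1 family are LINEs related to the chicken repeat 1. All of these spread early in mammalian history or before it and no longer move in the mouse. Their remains are scattered through introns and between genes, so that reads over them usually come from transcripts that start elsewhere, and their sequences have diverged enough that most short reads can be placed on a single copy. The table names a copy by its element and a running number, without coordinates, so genome positions, host genes and sequences of the copies were not analysed here.

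No MIR, L2 or CR1 copy passed the test. Of the 1430 copies, all of which have a p-value, 0 were higher and 0 lower in Dot1l KO at an adjusted p under 0.05 by DESeq2, whereas 1.11% of all tested copies were called, 0.878% higher and 0.229% lower. Without adjustment, 15 copies were higher and 13 lower at p under 0.05, or 1.96% of the 1430, beside 4.70% of all copies (2.88% higher, 1.82% lower). By family, 17 of 832 MIR copies reached that level (8 higher, 9 lower), as did 7 of 520 L2 copies (5 higher, 2 lower) and 4 of 78 CR1 copies (2 higher, 2 lower). The copies nearest to the threshold stayed outside it: the smallest Wald statistic called among all copies had a size of 3.46, and the member closest to it reached 3.14.

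The fold changes were centred near 0. The median log2 fold change was -0.02 over the 1430 copies and 0.02 over all copies of the table. Among the ancient copies 48.3% had a positive value, against 50.9% of all copies, and the quartiles of the values were -0.50 and 0.49. A change of at least 1 in either direction was fitted for 275 copies, or 19.2%, where the whole table had 24.9%. The MIR family had a median of -0.06, L2 of 0.01 and CR1 of 0.03. Differences between these medians were not tested, and each is small beside the median SE of a single copy, 1.09.

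**Figure D1:**
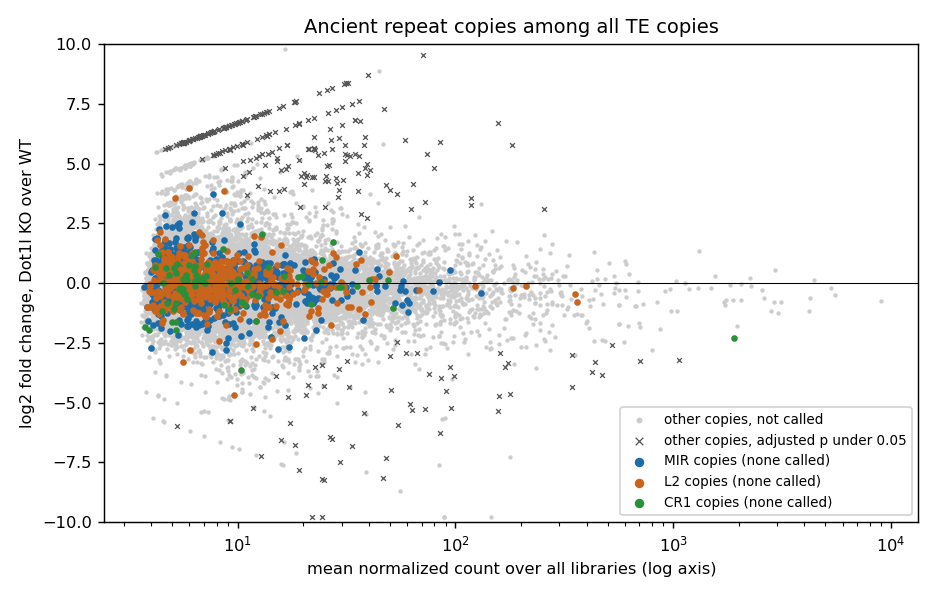
Log2 fold change (Dot1l KO over WT) against the mean normalized count on a log axis, 1 point per TE copy; MIR (blue), L2 (orange) and CR1 (green) lie over all other copies (grey dots, or crosses where adjusted p was under 0.05), and 6 copies beyond the vertical range are drawn at its edges. The coloured points form a band around 0 at low means with 0 calls, and 1 CR1 copy, L3_dup5867, stands alone at a mean of 1907 and a fold change of -2.31.

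The medians of single elements lay close together, and differences between them were not tested. Among MIR elements the median log2 fold change was -0.03 for the 274 copies of MIR itself, -0.04 for 276 MIRb copies, -0.05 for 164 MIRc copies and -0.16 for 118 MIR3 copies. MIR3 had the fewest positive values of these, 49 of 118, and MIR the most, 132 of 274. Among L2 elements the medians were 0.10 for 145 copies of L2, -0.04 for 180 of L2a, -0.16 for 108 of L2b and 0.11 for 87 of L2c. In the CR1 family most copies are of L3, with 52 copies and a median of 0.02, and of L3b, with 13 copies and a median of 0.11. The remaining 13 copies belong to Plat_L3, CR1_Mam and the X6 and X7 LINEs, with 1 to 3 copies each.

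**Figure D2:**
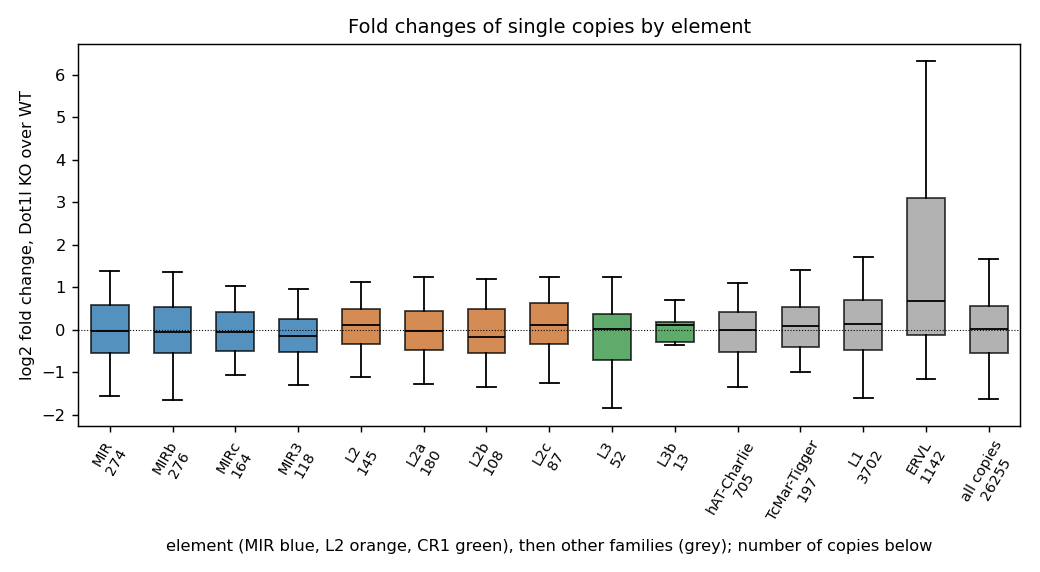
Log2 fold changes (Dot1l KO over WT) of single copies for 10 ancient elements and, in grey, for 4 other families and the whole table; a box spans the quartiles with the median as a line, whiskers run between the 5th and 95th percentiles, and the number of copies stands under each name. The boxes of the ancient elements straddle 0, with medians from -0.16 to 0.11, while the ERVL box has a median of 0.68.

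Other families of the table are set beside the ancient copies here. Among hAT-Charlie copies, remnants of old DNA transposons, 0 of 705 were called and 0.709% reached an unadjusted p under 0.05, with a median of -0.02. TcMar-Tigger copies, also DNA transposons, had 0 of 197 called and 0.508% at that level, with a median of 0.09. Of the LINE-1 family, 10 copies were higher and 8 lower out of 3689 tested. The ERVL family, which holds MERVL, had 179 copies higher and 1 lower of 1141 tested and a median of 0.68. With ERVL left out, 51 copies were higher and 59 lower in the rest of the table, and 3.48% of the remaining copies had an unadjusted p under 0.05. Among the SINEs that arose in rodents, the unadjusted shares were like that of the ancient copies: 1.74% of 5061 tested copies of the Alu family (B1 elements in the mouse), 1.47% of 2787 B2 copies and 2.26% of 3581 B4 copies. Of these, 4 Alu copies were called higher and 2 lower, 1 B2 copy each way, and 3 B4 copies higher and 2 lower. Low shares were therefore also seen outside the ancient families. The family differences are given as counts and medians and were not tested.

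The precision of single copies was low. Most had low normalized counts: the median of the mean counts was 7.29, 1001 of the 1430 copies (70.0%) were under 10, and 23 reached 50. At the median SE, a copy would have needed a log2 fold change of 3.76 in size, or 13.6-fold, to reach the smallest Wald statistic called in this table. For the most precisely measured member the limit was 2.27, or 4.81-fold. The 95% interval lay wholly between -1 and 1 for 0 copies and between -2 and 2 for 148, so the absence of calls leaves room for changes of that order in most single copies. The intervals reflect the replicate spread in the authors' fit, and the depth behind them is unknown.

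Small p-values were less frequent among the ancient copies than among other copies in each of 5 ranges of mean count, a difference that was not tested and that holds for the other copies taken as a whole. Between 5 and 10 mean counts, 14 of 774 ancient copies (1.81%) had an unadjusted p under 0.05, against 3.87% of the other copies, of which 81 were called. Between 20 and 50, 3 of 116 (2.59%) did so, against 8.51% of the others, of which 87 were called. Above 50, it was 1 of 23 (4.35%), against 14.1% of the others, of which 44 were called. The median log2 fold change of the ancient copies ran with abundance, at 0.13 up to a mean of 5, -0.08 between 10 and 20 and -0.33 above 50. The other copies had 0.14, -0.03 and -0.31 in the same ranges, which is the same order.

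**Figure D3:**
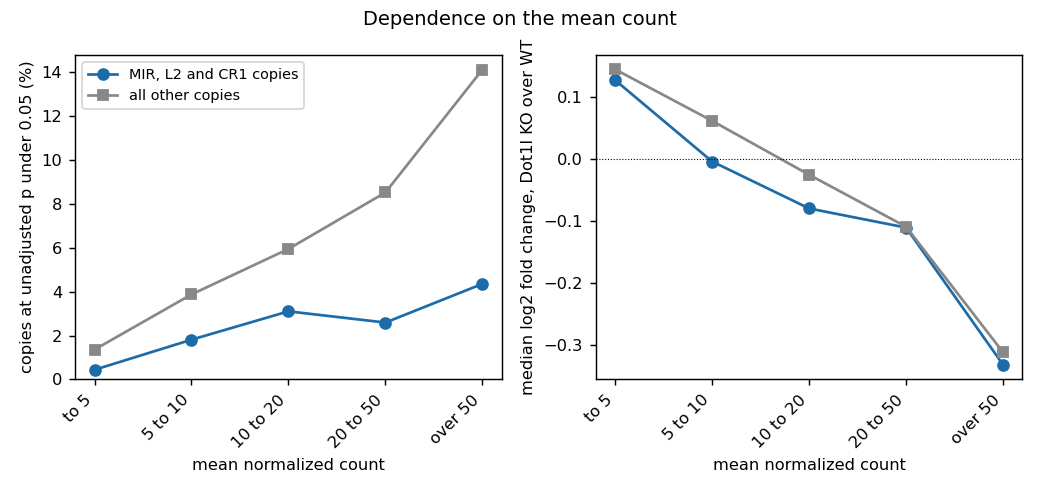
Share of copies with an unadjusted p under 0.05 (left, percent) and median log2 fold change, Dot1l KO over WT (right), in 5 ranges of the mean normalized count, for MIR, L2 and CR1 copies (blue circles) and all other copies (grey squares). The blue share stays below the grey one in each range, and both medians decline with the mean to about -0.3 above 50.

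Intervals were narrower for whole subfamilies than for single copies. None of the 20 subfamily totals passed: 0 were higher and 0 lower in Dot1l KO by DESeq2, beside 0.748% of all subfamilies called, 0.641% higher and 0.107% lower. Without adjustment 0 were higher and 1 lower, beside 5.24% of all subfamilies, 1.92% higher and 3.31% lower. MIRb, the most abundant with a mean of 7342 normalized counts, had -0.08 ± 0.19 and a 95% interval of -0.44 to 0.29 in the authors' deposited table. MIR was at -0.09 ± 0.19 in the authors' deposited table, with a mean of 6592. L2a, with a mean of 5244, was at -0.14 ± 0.15 in the authors' deposited table, where its interval ran between -0.44 and 0.16. L2, the element for which the family is named, stood at -0.01 ± 0.22, interval -0.43 to 0.42, in the authors' deposited table.

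MIRc, MIR3, L2b and L2c had values between -0.18 and -0.09 in the authors' deposited table. Apart from L3, the 8 subfamilies with a mean of at least 1000 had SEs from 0.15 to 0.22, and their 95% intervals together covered -0.53 to 0.42, or 0.694-fold to 1.34-fold. Differences outside that range are therefore beyond the interval of each of these 8 totals, while smaller ones are not resolved. All 9 subfamilies of that abundance, L3 included, had a negative value as deposited. Over all subfamilies 43.5% had a positive value, and the most abundant of 20 bins of mean count had a median of -0.19. With centring on the median of the subfamily table or of the gene table, 8 of the 9 were negative and 1, L2, was positive. Centring within 20 bins of mean count left 3 of the 9 negative, but it sets the median of each bin to 0, so that the balance of signs among subfamilies of like abundance is fixed by it.

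**Figure D4:**
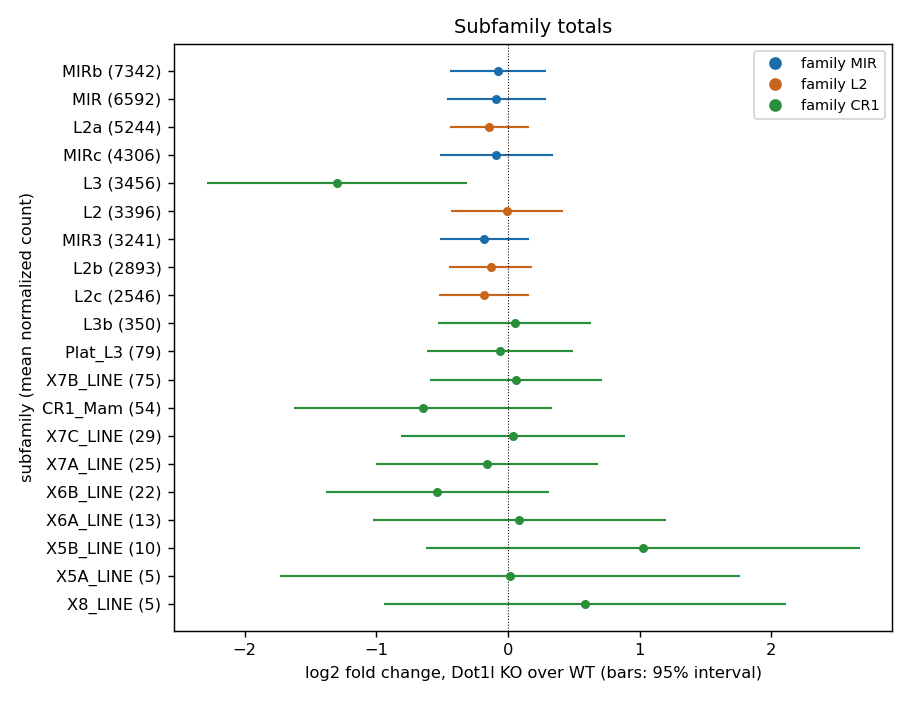
Log2 fold change (Dot1l KO over WT) of the 20 MIR, L2 and CR1 subfamily totals with 95% intervals, ordered by mean normalized count (in brackets after each name). All intervals include 0 except that of L3, which ran between -2.29 and -0.31 with adjusted p = 0.428.

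Among the 9 totals with a mean of at least 1000, L3 alone had a fold change of at least 1 in size, and it did not pass the adjusted test. In the authors' deposited table its mean is 3456 normalized counts and its fold change -1.30 ± 0.50, with p = 0.00986 and adjusted p = 0.428. Its implied level was 1997 in Dot1l KO and 4915 in WT. A single copy, L3_dup5867, held much of this signal: its mean of 1907 equals 55.2% of the mean of the L3 total, 78.1% of the summed means of the 52 L3 copies listed and 68.6% of those of all CR1 copies. The 2 tables may have been scaled separately, so the share of the total is approximate. Among the less abundant totals, X5B_LINE also had a fold change past 1 in size, namely 1.02 ± 0.84 in the authors' deposited table (DESeq2, adjusted p = 0.996), where its mean count is 10.1.

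L3_dup5867 was also the most abundant of all 1430 ancient copies, and its mean is 10.8% of their sum. Its implied level was 639.97 normalized counts in Dot1l KO and 3175 in WT. In the authors' deposited table its fold change is -2.31 ± 0.84, with a 95% interval of -3.97 to -0.66, p = 0.00619 and adjusted p = 0.300, so it did not pass. Over the alternative settings its adjusted p ran between 0.0941 and 1. With the implied levels of this copy subtracted from the L3 total, on the assumption that both tables share a scale, what remained was 1357 in Dot1l KO and 1740 in WT, a log2 ratio of -0.36 that carries no error of its own. The other 51 listed L3 copies summed to 532.6 in Dot1l KO and 539.2 in WT, a log2 ratio of -0.02, and their median fold change was 0.05.

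The same copy moved the family sums. Over all CR1 copies the implied levels summed to 1499 in Dot1l KO and 4066 in WT, but to 858.9 in Dot1l KO and 891.1 in WT without L3_dup5867. For the 1430 copies together the log2 ratio of the sums was -0.29, and -0.10 without that copy. MIR copies summed to 8357 in Dot1l KO and 8897 in WT, a log2 ratio of -0.09, and L2 copies to 6081 in Dot1l KO and 6580 in WT, a ratio of -0.11. The sum over every copy in the table had a log2 ratio of -0.24.

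Elsewhere no single copy held as much: the highest copy had 1.52% of the summed means in MIR and 5.71% in L2, against 68.6% in CR1. The 10 highest copies held 8.71% of the summed means of the 832 MIR copies, 23.5% for the 520 L2 copies and 79.7% for the 78 CR1 copies. As the families differ in size, 10 copies are not the same part of each. Counts are not divided by length, and the lengths of the copies are not given, so the order of these means is not an order of transcription. The copies listed singly account for 38.1% of the mean of the MIR total, 39.0% for MIRb, 48.0% for L2a and 42.8% for L2, with the same reservation on scaling.

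The highest MIR copies were MIR3_dup4059, MIRc_dup5631 and MIRc_dup1611. MIR3_dup4059 had an implied 111.9 normalized counts in Dot1l KO and 150.6 in WT, and -0.43 ± 0.72 in the authors' deposited table. For MIRc_dup5631 the implied levels were 112.2 in Dot1l KO and 75.8 in WT, with 0.57 ± 0.95 in the authors' deposited table. MIRc_dup1611 was nearly level, with 85.5 in Dot1l KO and 82.7 in WT and a fold change of 0.05 ± 0.80 in the authors' deposited table. The sizes of these 3 fold changes were below their own SEs.

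The highest L2 copies were all of the L2a and L2c elements. L2c_dup11333 had an implied 262.3 normalized counts in Dot1l KO and 460.9 in WT, and the authors' deposited table gives it -0.81 ± 0.70 with adjusted p = 1.00. L2a_dup11085 and L2a_dup11087 follow in abundance, at -0.46 ± 0.75 and -0.14 ± 0.69 in the authors' deposited table. The copy numbered between them, L2a_dup11086, is also abundant, with 171.9 implied counts in Dot1l KO and 197.4 in WT, and was named after its values were seen. The 3 together have a summed mean of 749.2; the table does not say what the running numbers order.

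In the CR1 family, L3_dup5867 was followed by L3_dup7846, with an implied 34.0 normalized counts in Dot1l KO and 69.4 in WT, and by X7B_LINE_dup116, with 51.4 in Dot1l KO and 46.9 in WT. The authors' deposited table has -1.03 ± 0.98 for L3_dup7846 and 0.13 ± 0.69 for X7B_LINE_dup116, adjusted p = 1.00 for both by DESeq2. None of these 9 copies, the 3 with the highest mean in each family, passed, and L3_dup5867 had the only 95% interval among them that did not include 0.

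**Figure D5:**
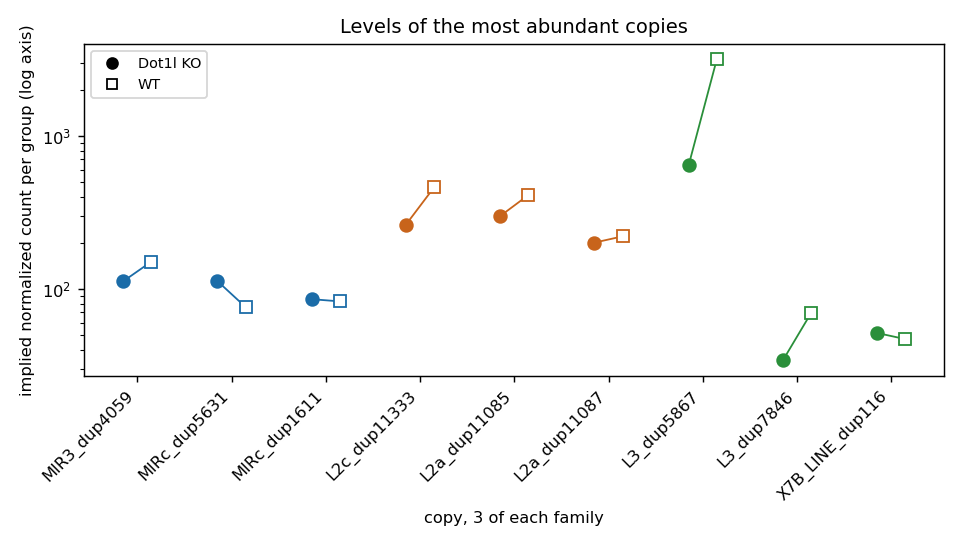
Implied normalized counts (log axis) of the 3 most abundant copies of each family, with Dot1l KO as filled circles on the left and WT as open squares on the right of each pair, joined by a line. The pair of L3_dup5867, 639.97 in Dot1l KO and 3175 in WT, is the widest apart; single samples are not shown because the tables hold none, and none of these differences passed the test.

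The copies with the smallest p-values are described here after their values were seen. L2_dup11818 came closest, with an implied 16.2 normalized counts in Dot1l KO and 1.12 in WT; in the authors' deposited table it has 3.85 ± 1.23 with adjusted p = 0.119. MIR_dup27850 had an implied 14.4 in Dot1l KO and 1.08 in WT, and the authors' deposited table gives 3.73 ± 1.28 with adjusted p = 0.197. L2b_dup1913 had 11.2 in Dot1l KO and 0.715 in WT, and its interval of 1.21 to 6.72 in the authors' deposited table comes with adjusted p = 0.246 (DESeq2). Over the whole WT group the implied normalized counts of these 3 copies come to only about 3.37 for L2_dup11818, 3.24 for MIR_dup27850 and 2.15 for L2b_dup1913.

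On the other side, MIR_dup19839 had an implied 1.82 normalized counts in Dot1l KO and 13.5 in WT, and CR1_Mam_dup171 had 1.55 in Dot1l KO and 19.2 in WT. The authors' deposited table gives -2.89 ± 1.16 for MIR_dup19839 and -3.63 ± 1.46 for CR1_Mam_dup171, each with adjusted p = 0.503. Of the 28 copies with an unadjusted p under 0.05, 24 (85.7%) had a mean count under 20, beside 90.3% of all 1430. The 4 above that were L3_dup5867, L3_dup962 at 1.71 ± 0.74, MIRc_dup17587 at -1.97 ± 0.90 and MIRb_dup22313 at -2.28 ± 1.08 in the authors' deposited table; their adjusted p lay between 0.300 and 0.897. The lowest fitted value of all, -4.69 ± 3.22 for L2a_dup3212 in the authors' deposited table, had an interval of -11.0 to 1.61 and an unadjusted p = 0.145. Its implied level was 0.714 in Dot1l KO and 18.5 in WT.

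Few genes of the RNA polymerase III machinery, or of the factors that degrade or end transcripts, passed the test. Over all genes, 6.58% were called, 5.34% higher and 1.25% lower in Dot1l KO by DESeq2, and without adjustment 16.2% were at p under 0.05, 10.6% higher and 5.55% lower. Among 31 measured genes of the RNA polymerase III machinery, which transcribes tRNA genes and intact SINEs, 0 were higher and 1 lower, with a median log2 fold change of -0.18 beside -0.02 over all genes. The one that fell was Polr3gl (chromosome 3, 96577872 to 96594181 in mm10), which encodes 1 of the 2 alternative forms of a subunit of this polymerase. Its implied level was 434.0 normalized counts in Dot1l KO and 1045 in WT, and the authors' deposited table gives -1.27 ± 0.31 (DESeq2, adjusted p = 0.00135). Polr3g (chromosome 13, 81673843 to 81711013), which encodes the alternative form and is the one typical of ESCs, had 3391 in Dot1l KO and 2920 in WT, with a fold change of 0.22 ± 0.25 in the authors' deposited table (DESeq2, adjusted p = 0.763).

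The nuclear RNA exosome and its adaptors, which degrade intronic and read-through RNA, had 26 measured genes with 0 higher and 0 lower; without adjustment 0 were higher and 1 lower, and the median was -0.15. The lowest p belonged to Pabpn1 (chromosome 14, 54892500 to 54898169), a nuclear poly(A)-binding protein, listed at -0.58 ± 0.27 in the authors' deposited table (DESeq2, adjusted p = 0.246). Of 24 factors of cleavage, polyadenylation and termination, which end transcripts, 0 were higher and 0 lower by DESeq2, also without adjustment, with a median of -0.12. Fip1l1 (chromosome 5, 74535449 to 74598800), a subunit of the cleavage complex, had the smallest p among them, being -0.32 ± 0.25 in the authors' deposited table (DESeq2, adjusted p = 0.611).

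Markers of other cells moved in the same samples. Of 9 measured 2-cell-like markers 7 were higher by DESeq2, of 8 primitive endoderm markers 6, and of 6 fibroblast markers 5, with 0 lower in each list. The shares over all genes were 5.34% higher and 1.25% lower. Of 7 stem cell markers, Pou5f1, Sox2 and Nanog included, 0 were higher and 0 lower by DESeq2 (1 higher and 0 lower without adjustment). In bulk RNA, more cells of a type and more RNA per cell cannot be told apart, and the part of these markers in the values of single ancient copies was not tested.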

How the data were processed

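Per the submitters' processing notes, reads were aligned with HISAT2 2.1.0 to mm10, counted with featureCounts 2.0.0 and compared with DESeq2. The DESeq2 version and the handling of strand, of reads with several placements and of low counts are not stated there. The authors deposited 3 tables of their comparison. Per the file headers, the mean is a signal averaged over all libraries (counts divided by size factors), the effect is on the log2 scale (fold change and standard error), the score the Wald statistic, and the p-value is given with its Benjamini-Hochberg adjustment. There are 51 copies, 2 subfamilies and 7 genes without a p, none of them ancient copies.

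As the tables hold no values per sample, the planned edgeR or limma fit gave way to the authors' test, adjusted over each whole table, at a threshold of 0.05. Families were read from the row names. Implied group levels are 2 × mean, divided between the groups by the fold change; 95% intervals are the fold change ± the normal quantile times its SE. In 3 of the 1430 copies a group was at or under 3 implied normalized counts in all. Wald p-values and adjustments recomputed in Python 3.11.15 with scipy 1.17.1 matched the deposited ones, and the code was tested on simulated data.

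The members and lists were chosen with earlier results of these data known. Named by rule were, in each family, the 4 largest changes each way past the threshold with a mean of at least 20, of which there were none, and the 3 highest means; subfamilies past the threshold or highest in their family; and list genes past the threshold or with the smallest p. Other named copies were chosen after their values were seen. Polr3g, the alternative form beside Polr3gl, and the remaining named subfamilies were also named outside these rules. Gene coordinates were looked up by symbol in GENCODE M21, which is on GRCm38 (mm10). The exosome list writes 3 genes under an older and a newer symbol. Alternatives were a threshold of 0.01, a minimum size of 1 for the log2 fold change, a mean of at least 10 or 50, Bonferroni adjustment, and centring on the median of the table, of the gene table or within 20 bins of mean count.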

Additional observations from a re-analysis of the deposited data

How the results depend on the processing

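Under each of the 8 alternatives run, the number of MIR, L2 and CR1 copies higher and lower in Dot1l KO stayed at 0, in the 3 families together and one by one, as did the number of subfamilies. The 20 copies followed singly are those described above and MIR_dup20764. They and the 20 subfamilies stayed outside the threshold in all 296 values computed. The stricter threshold, the minimum size of the fold change and the Bonferroni adjustment can only remove calls. As the authors' test gave 0 calls here, those settings could not change the result and do not test it. Only the minimum mean counts and the centrings could have added calls. The smallest adjusted p under an alternative was 0.0941, for L3_dup5867, whose range ran up to 1; L2_dup11818 ranged between 0.106 and 1. Centring reversed the sign of these values, or for subfamily L2b set the value to 0, in 13 cases, in 11 copies or subfamilies, none of them called. Centring within bins of mean count shifts the subfamilies by up to 0.25 (log2) and sets the median of each bin to 0 by construction. The median log2 fold change of the ancient copies lay between -0.33, at a mean of at least 50, and 0.00 when centred on the gene table. No paired analysis was possible because the tables carry no values per sample, and for the same reason no replicate could be left out. Low counts per copy limit what single copies can show.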

Other observations

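Repeats of like age outside the 3 families were seen in small numbers. The Deu family of SINEs had 11 copies with a median log2 fold change of 0.11 and 0 calls by DESeq2, with 0 also at an unadjusted p under 0.05. The RTE-X LINEs had 6 copies with a median of 0.01, again with 0 at an unadjusted p under 0.05. Among old DNA transposons, hAT-Tip100 had 29 copies with a median of 0.30, hAT-Blackjack 16 with 0.35 and TcMar-Mariner 15 with 0.22, each with 0 calls by DESeq2 and 0 at an unadjusted p under 0.05. Their subfamily totals had medians of -0.13 (24 totals), 0.16 (7) and -0.10 (3), so the sign differed for hAT-Tip100 and TcMar-Mariner. Counted beside them were TcMar-Tc2, with 9 copies and a median of 0.11, Gypsy, with 7 and 0.33, and RTE-BovB, with 1 at -0.64. None of those copies was called, but 1 of 15 Gypsy subfamily totals was higher by DESeq2, beside 0.641% of all subfamilies. The Gypsy totals had a median mean count of 9.42. At an unadjusted p under 0.05 by DESeq2 were 2 Gypsy totals, 2 of 8 TcMar-Tc2 totals and 1 of 24 hAT-Tip100 totals. The other families of this paragraph had 0, and the share over all subfamilies was 5.24%. Differences between these families were not tested.

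Copies with consecutive running numbers within an element formed 107 runs, which take in 227 of the 1430 ancient copies (15.9%). The longest run had 5 copies. Of the 23 copies with a mean of at least 50, 10 lay in such runs. The fold changes had a single sign in 62 of the runs. As 97 of the 107 runs are pairs, which can share a sign without any link, and no expected number was computed, this count carries no conclusion. L2a_dup11633 and L2a_dup11634, 1 of the pairs with a single sign, have identical values, with a mean of 4.96 and a log2 fold change of 0.49. The tables do not say what the numbers order, so these are values only.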
